A study of Homo sapiens with 4 samples.

Results

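The 10 genes described here drive or restrain the passage of a cell from G1 into S phase. They were chosen by name from the GENCODE annotation of hg19, which holds 20162 protein-coding genes, and all 10 were found there. They are the D-type cyclins CCND1, CCND2 and CCND3, the E-type cyclins CCNE1 and CCNE2, the kinases CDK4 and CDK6, and the inhibitors CDKN2A, CDKN2B and CDKN1B. For each gene, peaks of the histone mark H3K27ac were taken within 1 kb of any annotated transcript start, which are the promoter peaks of the text, and within 50 kb of the gene body, which is the neighbourhood of the gene.

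D-type cyclins bind CDK4 and CDK6, and these kinases phosphorylate the retinoblastoma protein RB1, which holds back the E2F transcription factors. E2F factors in turn switch on genes that include those of the E-type cyclins, which bind CDK2 and carry the cell into S phase. The INK4 proteins, p16INK4a from CDKN2A and p15INK4b from CDKN2B, block CDK4 and CDK6, while p27KIP1 from CDKN1B binds cyclin-CDK2 complexes. CDKN2A has a further start upstream, from which p14ARF, a protein that stabilises p53, is made. H3K27ac marks active promoters and enhancers, so it can show which of these genes and which nearby elements carry an active chromatin mark.

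The data are 4 lists of H3K27ac ChIP-seq peaks from cancer cell lines for which the labels name no treatment. COLO-205 is a colon line grown in RPMI with FBS, DU-145 a prostate line grown in Eagle minimal essential medium with FBS, OVCAR-3 an ovarian line grown in RPMI 1640 with FBS, and SKOV-3 an ovarian line grown in McCoy's 5a medium with FBS. Each line has 1 library, so the line, its medium and its library cannot be told apart, no test between lines was possible, and the intervals given cover counting error only. The lists hold 75468 to 85576 peaks in COLO-205, DU-145 and OVCAR-3 and 14001 in SKOV-3, from libraries of 22400000 to 36000000 ChIP tags. The fold of a peak is its tag pileup at the summit plus a pseudocount of 1, over the local background plus 1, as the peak caller gave it within 1 library. The pseudocount lowers the fold most where the background is low, and the values are not scaled between libraries. The strongest of several peaks is the one with the lowest q-value, which need not have the highest fold. A gene with no peak in a list is one whose H3K27ac was not detectable at the threshold of that list. Among marker genes, the epithelial genes EPCAM, KRT8, KRT18 and CDH1 had a promoter peak in 4 of 4 cases in COLO-205, DU-145 and OVCAR-3 and in 2 of 4 in SKOV-3 (KRT8 and KRT18). Of the colon genes CDX1, CDX2, VIL1 and KRT20, COLO-205 had a promoter peak for 2 of 4 (CDX2 and VIL1) and the other lines for none. Of the ovarian genes PAX8, WT1, MUC16 and EMX2, a promoter peak was present for 4 of 4 in OVCAR-3, 3 in COLO-205 (all but MUC16), 2 in DU-145 (PAX8 and MUC16) and 1 in SKOV-3 (PAX8). These ovarian genes thus did not set SKOV-3 apart from the lines of other organs. The PAX8 fold was 31.3 in OVCAR-3, 8.86 in SKOV-3, 5.19 in DU-145 and 4.48 in COLO-205. The leukocyte gene PTPRC had no promoter peak in any list.

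Most of the G1 genes were marked at a promoter in COLO-205, DU-145 and OVCAR-3, and in SKOV-3 their share was near that of all protein-coding genes. A promoter peak was present for 10 of the 10 genes in COLO-205, against 51.1% of all protein-coding genes. It was present for 9 in DU-145, against 59.8%, for 9 in OVCAR-3, against 60.5%, and for 3 in SKOV-3, against 31.6%. The gene without a peak in DU-145 and OVCAR-3 was CCND2. Only CCND1, CCND3 and CCNE1 had a promoter peak in all 4 lists, a pattern shared by 25.2% of all protein-coding genes. Of the 9 G1 genes marked in COLO-205, DU-145 and OVCAR-3, 3 were also marked in SKOV-3. Among the 7686 protein-coding genes that were marked in those other lines, 66% were marked in SKOV-3. The SKOV-3 list is the shortest, and fewer acetylated promoters and a library with fewer called peaks cannot be told apart. With the 14001 strongest peaks taken from each list, the counts were 8 genes in OVCAR-3, 3 in SKOV-3, 7 in DU-145 and 4 in COLO-205, and the shares of all protein-coding genes were 37.9%, 31.6%, 37.8% and 21.8% in the same order. The 4 genes left in COLO-205 were CCND1, CCND3, CDKN2A and CDKN1B.

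Promoter peaks of the G1 genes had a median fold of 12.0 in OVCAR-3, where the median over all marked protein-coding genes was 7.39. The medians were 6.12 against 4.65 in DU-145, 4.85 against 4.45 in COLO-205 and 5.62 against 5.25 in SKOV-3, where only 3 genes enter. By median −log10 q, the G1 genes were at 12.7 against 13.9 in SKOV-3 and 12.5 against 12.1 in COLO-205. They were at 30.9 against 21.5 in DU-145 and 81.5 against 42.7 in OVCAR-3. The highest folds were those of CDKN2A and CCNE1 in OVCAR-3.

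**Figure D1:**
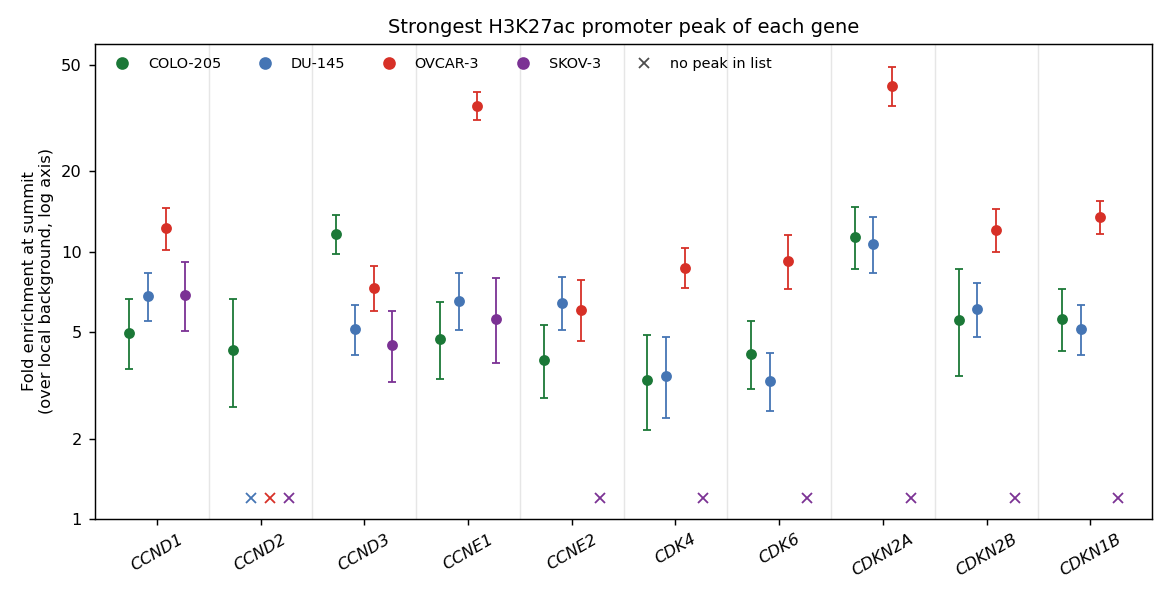
Fold enrichment at the summit of the strongest promoter peak (log axis) for each of the 10 genes in the 4 lines, with bars for the exact Poisson 95% interval of the pileup and crosses for genes with no promoter peak in that list. CDKN2A at 41.7 and CCNE1 at 35.2, both in OVCAR-3, lie above all other points, and SKOV-3 has points at CCND1, CCND3 and CCNE1 alone.

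CCND1 encodes cyclin D1, which couples growth factor signals to CDK4 and CDK6. It lies on the plus strand at chr11:69455924-69469242, and a promoter peak was found in every line. The strongest had a fold of 12.2 in OVCAR-3, 6.88 in SKOV-3, 6.81 in DU-145 and 4.98 in COLO-205. The pileup behind these values was 121 tags in OVCAR-3, 93 in DU-145 and 44 in both COLO-205 and SKOV-3. In OVCAR-3 the peak was a single block of 2952 bp over the start and the first part of the gene, whereas in the other lines the same stretch held several shorter peaks. The summit lay in an intron 1551 bp after the start in SKOV-3, 1570 bp in OVCAR-3 and 1607 bp in COLO-205, whereas in DU-145 it lay before the start, at -314 bp. The 250 bases before the canonical start are shown here because they hold the only E2F letters among the promoters printed. Peaks covered all 250 of them in OVCAR-3 and 181 in DU-145, whereas the COLO-205 and SKOV-3 peaks lay outside them. Capitals mark every match, on either strand, to the E2F letters TTTCCCGC, TTTGGCGC or TTTCGCGC and to the SP1 letters GGGCGG, and neighbouring SP1 matches may overlap. The sequence is the plus strand of GRCh37 at chr11:69455674-69455923.
CCND1 promoter: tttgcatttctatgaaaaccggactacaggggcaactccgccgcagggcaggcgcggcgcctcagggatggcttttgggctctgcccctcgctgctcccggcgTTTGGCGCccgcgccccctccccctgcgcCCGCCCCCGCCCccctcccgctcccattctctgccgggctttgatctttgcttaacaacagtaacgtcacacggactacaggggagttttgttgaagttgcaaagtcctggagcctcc

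This window holds 1 E2F match and 2 SP1 matches. Of the 19862 windows of this length before canonical starts of protein-coding genes, 3.25% held an E2F match and 59.2% an SP1 match. A match describes the letters and does not show that a factor binds.

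Marked sites also lay just upstream of CCND1. In COLO-205 the strongest upstream peak, with a fold of 4.97, had its summit at -2234 bp from the start. In OVCAR-3 a peak of 1153 bp width with a fold of 8.95 had its summit at -2249 bp. In DU-145 and SKOV-3 the strongest upstream summits were at -1771 bp and -1805 bp, with folds of 8.07 and 3.65. Both sites were marked in OVCAR-3 and DU-145, since OVCAR-3 had a further summit at -1801 bp and DU-145 one at -2259 bp. The 200 bases around the OVCAR-3 summit at -2249 bp, at chr11:69453575-69453774 on the plus strand of GRCh37, are shown for that site alone. Peaks covered all 200 of them in OVCAR-3 and DU-145, 182 in COLO-205 and none in SKOV-3. These bases hold no match to the motifs searched.
CCND1 upstream element: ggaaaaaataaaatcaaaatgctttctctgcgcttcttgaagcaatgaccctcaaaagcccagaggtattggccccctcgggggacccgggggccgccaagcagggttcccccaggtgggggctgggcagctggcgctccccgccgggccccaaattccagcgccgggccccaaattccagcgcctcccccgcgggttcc

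Over the whole neighbourhood of CCND1 there were 8 peaks in OVCAR-3, 4 in SKOV-3, 14 in DU-145 and 15 in COLO-205. With the 14001 strongest peaks of each list, the counts were 4, 4, 4 and 2 in the same order. Peaks of the full lists covered 5.63% of the neighbourhood in OVCAR-3, 1.87% in SKOV-3, 7.74% in DU-145 and 4.38% in COLO-205. The SKOV-3 value was at percentile 94.1 of all protein-coding genes in that line, the highest rank that any of the 10 genes reached there. A peak near the start of LTO1, downstream of CCND1, was present in all 4 lists, with a fold of 7.50 in OVCAR-3, 4.35 in SKOV-3, 4.14 in DU-145 and 3.09 in COLO-205.

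**Figure D2:**
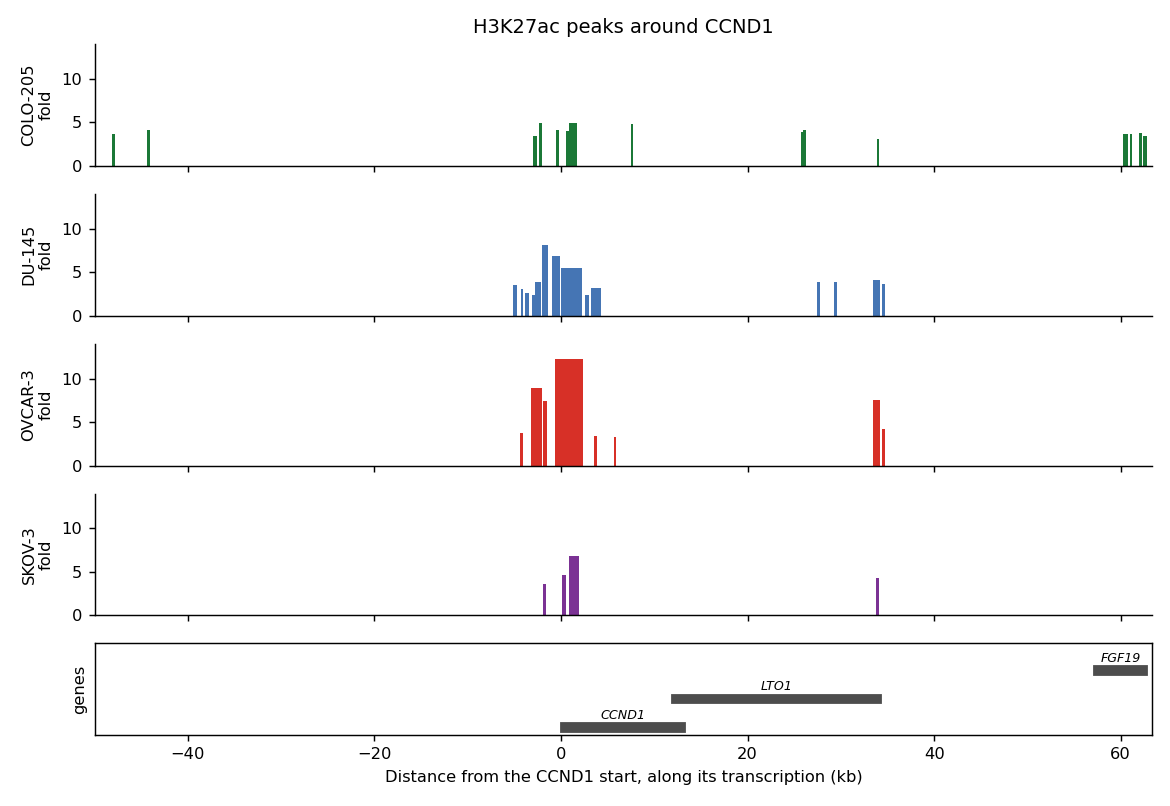
H3K27ac peaks in the neighbourhood of CCND1, drawn to scale by distance from its start (kb, positive along transcription) with the fold of each peak as height, and the annotated genes in the lowest panel. Peaks gather at the CCND1 start in all 4 lines, where the highest fold is 12.2 in OVCAR-3, and the LTO1 start is marked in all 4.

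CCND2, which encodes cyclin D2, had the fewest neighbourhood peaks of the 10 genes when summed over the 4 lines, though not within each line. Its neighbourhood held 5 peaks in COLO-205, 1 in DU-145 and none in OVCAR-3 or SKOV-3. The lone promoter peak, in COLO-205, had a fold of 4.28 from a pileup of 18 tags, and it lay near an alternative start at chr12:4378937, with its summit in an intron of the antisense gene CCND2-AS1. The canonical start, at position 4382928, had no peak within 1 kb in any list. The pattern of a promoter peak in COLO-205 alone was shared by 6.16% of protein-coding genes. The neighbourhood was covered to 0.946% in COLO-205, close to the median of 0.935% over all genes in that line. A neighbourhood with no peak at all was found for 5 of the 10 genes in SKOV-3, against 41.9% of all protein-coding genes, and for 1 in OVCAR-3, against 16.1%. COLO-205 and DU-145 had none among the 10 genes, against 14.9% and 18.3%.

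CCND3, which encodes cyclin D3, stood apart in COLO-205. Its neighbourhood there held 151 peaks over 53.5% of the sequence, of which 132 were more than 1 kb from every annotated start. The coverage ranked 10 among 20162 protein-coding genes. A coverage of at least 25% was reached by 1 of the 10 genes in COLO-205 and 1 in OVCAR-3, where 0.293% and 1.68% of all genes reached it. DU-145 and SKOV-3 had none of the 10 genes at that level, against 0.962% and 0.0546% of all genes. The other lines had 24 peaks over 5.30% in DU-145, 6 over 1.62% in OVCAR-3 and 4 over 0.488% in SKOV-3. The density was 700.9 peaks per Mb in COLO-205 and 18.6 to 111.4 per Mb elsewhere.

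The marked stretch in COLO-205 was wider than CCND3. Bins of 50 kb with at least 25% under peaks ran without a break from -650 kb to 950 kb around the CCND3 start by chromosome position, at chr6:41259546-42859545, a stretch of 1600 kb with 28 protein-coding genes that include BYSL, TFEB, FOXP4, TAF8 and TRERF1. It held 1033 peaks over 46.6% of its length in COLO-205, whereas 0.524% to 3.93% was covered in the other lines. The median pileup of the COLO-205 peaks was 43 tags, 1.79 times the median of its whole list. Their median local background was 0.8 times that of the list. At lower positions the bins from -1000 kb to -650 kb still had 10.6% to 31.0% under peaks in COLO-205. The cut-off of 25% thus set that edge, and the marking ran on to the end of the profile. The bin after the stretch, the last of the profile, had 8.30%.

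The CCND3 promoter peaks need care, because the gene has 18 annotated starts and shares the farthest, at chr6:42018095, with the divergent gene TAF8. The strongest promoter peak had its summit in an exon of TAF8 in all 4 lines, with a fold of 7.32 in OVCAR-3, 4.47 in SKOV-3, 5.12 in DU-145 and 11.6 in COLO-205. At the canonical CCND3 start, at position 41909546, and the starts around it, the strongest peak had a fold of 8.41 in COLO-205, 4.27 in DU-145 and 3.11 in OVCAR-3, and SKOV-3 had no peak. A further COLO-205 peak at these starts had a fold of 9.67. With canonical starts alone, the genes with a promoter peak were 2 in SKOV-3 (CCND1 and CCNE1), 8 in COLO-205, 8 in DU-145 and 9 in OVCAR-3. CCND3 dropped out in SKOV-3 alone, while COLO-205 lost CCND2 and CDK4 and DU-145 lost CDK6. The share of all protein-coding genes with a peak at the canonical start was not computed.

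**Figure D3:**
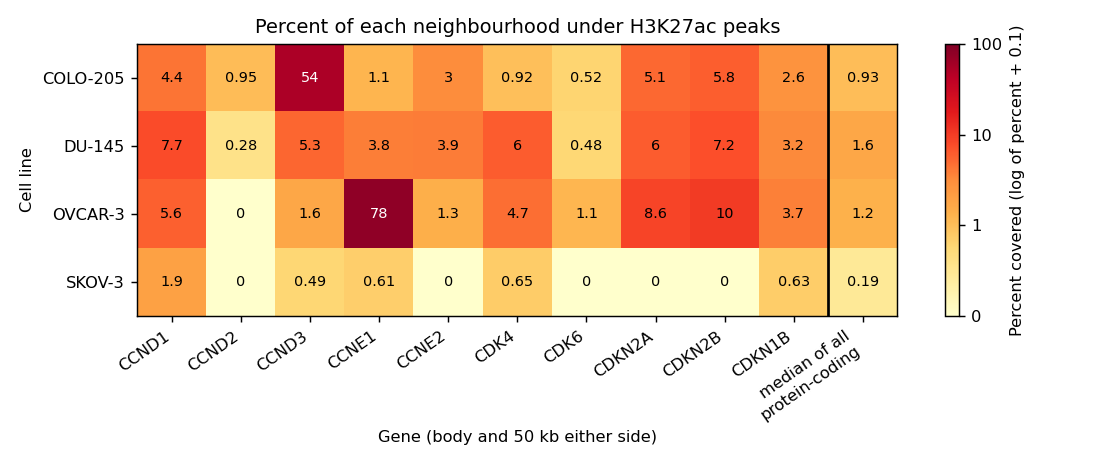
Percent of the gene body and 50 kb either side that lies under H3K27ac peaks, for each of the 10 genes (columns) in the 4 lines (rows), with the median over all protein-coding genes in the last column; the colour scale is logarithmic. CCND3 in COLO-205 and CCNE1 in OVCAR-3, at 53.5% and 78.4%, exceed every other cell, the next being CDKN2B in OVCAR-3 at 10.3%.

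CCNE1 encodes cyclin E1, which activates CDK2 at the G1/S boundary, and it lies at chr19:30302898-30315219 on the plus strand. It had a promoter peak in all 4 lines. The strongest had a fold of 35.2 in OVCAR-3, 5.62 in SKOV-3, 6.56 in DU-145 and 4.72 in COLO-205, where a weaker peak at an alternative start had a fold of 5.01. The OVCAR-3 peak was 3229 bp wide and stood at percentile 99.7 among the promoter peaks of that list by its q-value, while the peak was at percentile 38.7 in SKOV-3, 70.8 in DU-145 and 48.6 in COLO-205. Per 1000000 ChIP tags, the pileup was 8.22 in OVCAR-3 (exact Poisson 95% interval 7.28 to 9.24), 1.86 in DU-145, 1.29 in SKOV-3 and 1.17 in COLO-205. The interval of OVCAR-3 lay above those of the other lines, the highest of which ended at 2.36 in DU-145.

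The CCNE1 promoter is shown because its peak in OVCAR-3 had the highest pileup of all promoter peaks of the 10 genes, at 281 tags. That peak covered all 250 bases, and the promoter peaks of the other lines lay outside them. The window is the plus strand of GRCh37 at chr19:30302648-30302897, with SP1 matches in capitals.
CCNE1 promoter: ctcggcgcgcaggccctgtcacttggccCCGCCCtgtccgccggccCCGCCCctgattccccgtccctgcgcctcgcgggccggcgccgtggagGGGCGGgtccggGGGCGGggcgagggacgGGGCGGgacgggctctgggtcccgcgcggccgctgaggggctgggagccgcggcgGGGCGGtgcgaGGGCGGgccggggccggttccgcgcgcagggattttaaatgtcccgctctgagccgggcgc

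The window holds 7 SP1 matches and no E2F match, and its GC content is 81.2%, where the median over all promoter windows was 63.2%. An absent match says only that these letters are not in these 250 bases.

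The neighbourhood of CCNE1 was densely marked in OVCAR-3. It held 69 peaks over 78.4% of the window in OVCAR-3, 8 over 3.80% in DU-145, 4 over 1.14% in COLO-205 and 3 over 0.607% in SKOV-3. The OVCAR-3 count was 8.63 times that of DU-145, the next highest, and 4.33 times once peaks less than 350 bp apart were merged. Neighbouring peaks of 1 stretch are not independent counts, so no interval is given for these ratios. The OVCAR-3 coverage ranked 33 among all protein-coding genes. Of the 69 peaks, 60 were more than 1 kb from any annotated start.

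In 50 kb bins, the stretch around CCNE1 with at least 25% of every bin under peaks ran from -550 kb to 150 kb from the start, at chr19:29752898-30452897. Its 700 kb held 416 peaks over 67.2% of the length in OVCAR-3, against 0.918% in COLO-205, 1.30% in DU-145 and 0.345% in SKOV-3. It holds the starts of VSTM2B, POP4, PLEKHF1, C19orf12, CCNE1 and URI1. The bin before it had 1.15% under peaks, so the edge on that side fell within 50 kb. On the other side coverage was 13.2% in the next bin, 77.2% and 72.3% in the bins between 250 kb and 350 kb after the start, and 0.976% in the bin that followed.

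The peaks of the CCNE1 stretch were strong as well as many. In OVCAR-3 their median pileup was 46 tags, 1.70 times the median of the list, and 89.2% of them exceeded that median. The median local background was 3.34 tags, 0.797 times that of the list, and 30.0% of the peaks had a background over the median of the list. Peaks within 1 kb of a start made up 8.65%, and the widest peak spanned 9439 bp.

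**Figure D4:**
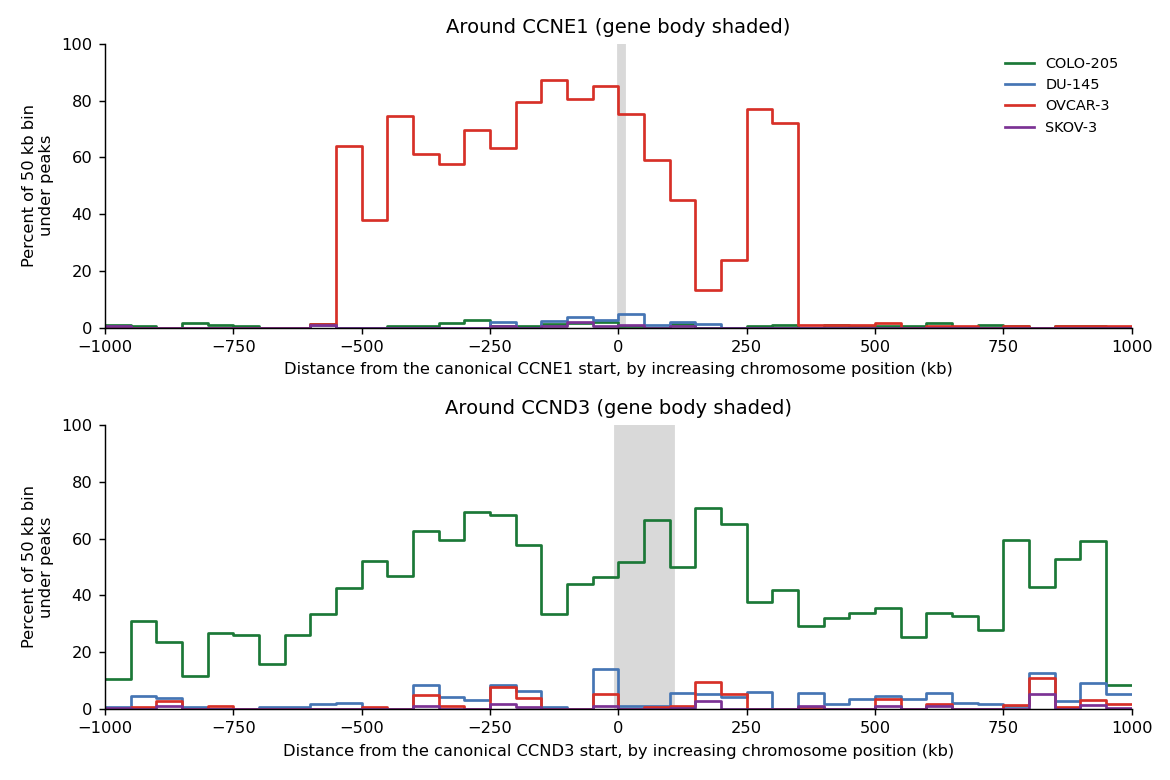
Percent of each 50 kb bin under H3K27ac peaks over 1 Mb either side of the canonical start of CCNE1 (upper panel) and of CCND3 (lower panel), by increasing chromosome position in kb, with 1 line per cell line and the gene body shaded. OVCAR-3 is high around CCNE1, with 67.2% under peaks from -550 kb to 150 kb, and COLO-205 is high around CCND3, with 46.6% under peaks over 1600 kb.

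The strongest peak away from any start in this neighbourhood was an OVCAR-3 peak of 3188 bp whose summit lay 21816 bp after the CCNE1 start. It had a fold of 29.7 and a pileup of 234 tags, and no other line had a peak there. Its 200 central bases, at chr19:30324614-30324813 on the plus strand of GRCh37, are shown because this was the strongest distal peak near any of the 10 genes, with the SP1 match in capitals.
CCNE1 distal element of OVCAR-3: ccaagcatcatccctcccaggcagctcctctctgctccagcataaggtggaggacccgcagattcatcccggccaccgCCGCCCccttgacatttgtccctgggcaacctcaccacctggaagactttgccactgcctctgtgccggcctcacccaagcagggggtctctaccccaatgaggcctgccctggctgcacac

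A second element was shared between lines. DU-145 had a peak with its summit 32592 bp after the CCNE1 start and a fold of 4.82, and SKOV-3 had one at 32609 bp with a fold of 5.72. In OVCAR-3 a peak of 6872 bp with a fold of 22.0 covered the same site, with its summit 32619 bp after the start, while COLO-205 had none. The 3 summits fell within the window chr19:30335390-30335589, which is printed from the plus strand to set the shared element beside the OVCAR-3 element. It holds 6 SP1 matches, in capitals, at a GC content of 81.0%.
CCNE1 shared element: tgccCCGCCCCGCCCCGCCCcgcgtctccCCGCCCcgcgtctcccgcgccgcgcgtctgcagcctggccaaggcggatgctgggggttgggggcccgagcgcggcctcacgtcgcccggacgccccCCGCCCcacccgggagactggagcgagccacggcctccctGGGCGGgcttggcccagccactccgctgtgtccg

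By coverage in the 4 lines, the genes over 1 Mb away that were most like CCNE1 were SELENOV, CACNG7 and TTYH1, at distances of 1.25 to 2.46 percentage points. All 3 lie on chromosome 19 and were covered to 77.8%, 78.3% and 80.6% in OVCAR-3. Chromosome 19 as a whole had 90.7 peaks per Mb in OVCAR-3, 3.72 times the median chromosome of that list. It was above the median chromosome in the other lists too, by 2.93 times in SKOV-3, 2.28 times in DU-145 and 1.19 times in COLO-205.

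CCNE2, which encodes cyclin E2, did not share the pattern of CCNE1. Its strongest promoter peak had a fold of 3.93 in COLO-205, 6.45 in DU-145 and 6.07 in OVCAR-3, with no peak in SKOV-3. The counting intervals of DU-145 and OVCAR-3 overlapped, at 5.11 to 8.04 and 4.62 to 7.84. The peaks were near the start of the divergent gene NDUFAF6 too, so their tags cannot be assigned to either gene alone. The neighbourhood held 4 peaks in OVCAR-3, none in SKOV-3, 8 in DU-145 and 11 in COLO-205, and most of those away from a start lay in introns of INTS8.

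CDK4 is a kinase partner of the D-type cyclins, in a stretch of chromosome 12 packed with genes. At its canonical start and those around it, the fold was 2.47 in DU-145 and 8.73 in OVCAR-3, and neither COLO-205 nor SKOV-3 had a peak. The promoter peaks counted for COLO-205 (fold 3.31) and the strongest in DU-145 (fold 3.44) belong to an alternative start and had their summits in an exon of MARCHF9. In OVCAR-3 the peak over the canonical start was 920 bp wide with a pileup of 130 tags, and its fold interval of 7.30 to 10.4 lay above that of DU-145 at the same start, 1.89 to 3.18. At the alternative start OVCAR-3 had a fold of 6.47, and its interval of 4.79 to 8.56 overlapped those of DU-145 and COLO-205, which ended at 4.81 and 4.89.

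Genes next to CDK4 were marked in every line, also where CDK4 was not. A peak near the start of TSPAN31 had a fold of 16.7 in OVCAR-3, 7.94 in SKOV-3, 3.16 in DU-145 and 5.15 in COLO-205. The start shared by METTL1 and EEF1AKMT3 was marked in all 4 lists as well, with a fold of 4.14 in SKOV-3.

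CDK6, the other kinase partner of the D-type cyclins, lies on the minus strand at chr7:92234235-92465887. Its strongest promoter peak had a fold of 4.15 in COLO-205, 3.27 in DU-145 and 9.23 in OVCAR-3, and SKOV-3 had no peak in the whole neighbourhood. At the canonical start itself, OVCAR-3 had 2 peaks and COLO-205 a weak peak with a fold of 2.88, while DU-145 was marked only at an alternative start inside the gene. In COLO-205 a pair of peaks deep in the gene, 191634 bp and 190073 bp after the start, had folds of 6.78 and 6.98, higher than the promoter peaks of that line. No other list had a peak at either.

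In SKOV-3, peaks were few on chromosome 7 as a whole, and not only absent at CDK6. That chromosome had 65 peaks in SKOV-3, or 0.409 per Mb, where the median chromosome of that list had 4.89 per Mb, and none of the 23 chromosomes was lower. Of 933 protein-coding genes on chromosome 7, 5.25% had a promoter peak in SKOV-3, against 31.6% over all chromosomes. The part of this shortage in the result at CDK6 was not tested. In the other lists chromosome 7 had 10.8 to 16.3 peaks per Mb, and 2 to 6 chromosomes were lower.

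CDKN2A lies on the minus strand at chr9:21967751-21995300 and was among the most strongly marked G1 genes in COLO-205, DU-145 and OVCAR-3, and unmarked in SKOV-3. At the p16INK4a start the fold was 6.84 in COLO-205, 11.6 in DU-145 and 41.7 in OVCAR-3. At the p14ARF start it was 11.4, 10.7 and 28.2 in the same lines. COLO-205 had the higher fold at the p14ARF start, and the other lines at the p16INK4a start. In pileup, the p14ARF peak had 56 tags and the p16INK4a peak 22 in COLO-205, with counting intervals of 42.3 to 72.7 and 13.8 to 33.3 that did not overlap. The pileups were 69 and 49 tags in DU-145 and 157 and 146 in OVCAR-3, where the intervals overlapped in both lines. The OVCAR-3 peaks stood at percentiles 97.1 and 95.5 of promoter peaks in their list. The p14ARF peaks also cover the start of the antisense gene CDKN2B-AS1, and the tags of these genes cannot be separated.

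Both CDKN2A promoters are shown because all 250 bases of each lay under peaks in COLO-205, DU-145 and OVCAR-3 and none in SKOV-3. The CDKN2B promoter is set beside them as that of the neighbour, although its peaks began at or inside the start of the gene: 10 of its 250 bases were under a peak in DU-145 and none in the other lines. They are the 250 bases before each start, read on the minus strand of GRCh37, at chr9:21974866-21975115 for p16INK4a, chr9:21995301-21995550 for p14ARF and chr9:22009305-22009554 for CDKN2B, with SP1 matches in capitals.
CDKN2A, p16INK4a start: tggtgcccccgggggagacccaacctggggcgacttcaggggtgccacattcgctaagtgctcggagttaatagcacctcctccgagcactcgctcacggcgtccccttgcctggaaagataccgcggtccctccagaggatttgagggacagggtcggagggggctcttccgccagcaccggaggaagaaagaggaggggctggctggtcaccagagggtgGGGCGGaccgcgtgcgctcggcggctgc
CDKN2A, p14ARF start: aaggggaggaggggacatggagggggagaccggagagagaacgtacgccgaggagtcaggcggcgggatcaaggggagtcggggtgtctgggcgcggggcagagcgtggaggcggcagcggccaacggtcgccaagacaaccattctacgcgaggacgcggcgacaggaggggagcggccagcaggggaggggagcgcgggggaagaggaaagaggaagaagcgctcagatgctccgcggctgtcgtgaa
CDKN2B start: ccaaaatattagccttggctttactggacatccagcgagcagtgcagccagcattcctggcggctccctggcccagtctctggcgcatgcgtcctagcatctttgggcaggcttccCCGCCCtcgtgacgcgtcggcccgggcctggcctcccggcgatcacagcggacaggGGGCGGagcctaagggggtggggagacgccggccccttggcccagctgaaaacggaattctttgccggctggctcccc

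The p16INK4a window holds 1 SP1 match, the CDKN2B window 2 and the p14ARF window none, and none of these windows holds an E2F match. Their GC contents were 66.8%, 66.4% and 68.4%. The strongest OVCAR-3 peak away from the starts, with a fold of 10.6, had its summit 9340 bp after the p16INK4a start in an intron of a long transcript, and DU-145 had a peak there with a fold of 5.45. The 200 bases around its summit, at chr9:21965416-21965615 on the plus strand, are shown as the distal element of this locus, and they hold no match.
CDKN2A distal element: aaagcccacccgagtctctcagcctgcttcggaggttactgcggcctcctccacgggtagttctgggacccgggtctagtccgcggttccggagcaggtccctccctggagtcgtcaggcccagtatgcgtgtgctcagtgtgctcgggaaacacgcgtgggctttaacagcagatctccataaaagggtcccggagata

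CDKN2B, the neighbour of CDKN2A, was marked in the same 3 lines. At its canonical start the fold was 3.32 in COLO-205, 6.12 in DU-145 and 12.0 in OVCAR-3, with pileups of 29, 73 and 114 tags. At 50 kb either side the windows of these neighbours share most of their peaks, with 13 in COLO-205, 12 in DU-145 and 19 in OVCAR-3 for CDKN2B and 14, 12 and 19 for CDKN2A. Coverage of the CDKN2A window was 5.07%, 6.04% and 8.61%, above the medians over all genes of 0.935%, 1.64% and 1.24%.

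The SKOV-3 list had no peak from position 21560283 to 25677770 of chromosome 9, a gap of 4117488 bp that takes in CDKN2A and CDKN2B whole. The median gap between neighbouring peaks in SKOV-3 was 24999 bp, and 99.5% of its 13977 gaps were shorter. Of 740 gaps on chromosome 9 in that list, 4 were longer. The interval holds no unknown base in the GRCh37 assembly. Within it there were 29 peaks in COLO-205, 26 in DU-145 and 50 in OVCAR-3, and 24, 26 and 49 of these lay in its first 1 Mb.

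In the full lists of the other lines, the starts of CDKN2A lay in or near peaks. Of 13 annotated starts, 9 lay inside a peak in COLO-205, 9 in DU-145 and 11 in OVCAR-3, and the longest gap around the rest was 3349 bp, 7265 bp and 2525 bp. All 13 lay in the gap in SKOV-3. With the 14001 strongest peaks of each list, the longest gap around these starts was 7942 bp in OVCAR-3, 296983 bp in DU-145 and 434279 bp in COLO-205, against 4117488 bp in SKOV-3, and CDKN2A still had a promoter peak in the first 3 of these lines. The gap took in the promoters of MTAP, CDKN2A, CDKN2B and DMRTA1, each of which had a promoter peak in all 3 other lines, and of ELAVL2 and IZUMO3, which had none in any line. MTAP, whose product salvages methionine, had a fold of 5.05 in COLO-205, 3.86 in DU-145 and 9.11 in OVCAR-3. On the flanks, the nearest protein-coding genes with a SKOV-3 promoter peak were KLHL9, 224880 bp before the gap, and TUSC1, 672 bp after it. Their folds were 4.56 and 3.88. The 50 kb bin in which the gap begins held 2 SKOV-3 peaks, with a median fold of 4.81, and the other lines had peaks in it too. A peak list gives no signal outside peaks, so DNA without the mark and DNA that did not enter the library cannot be told apart.

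**Figure D5:**
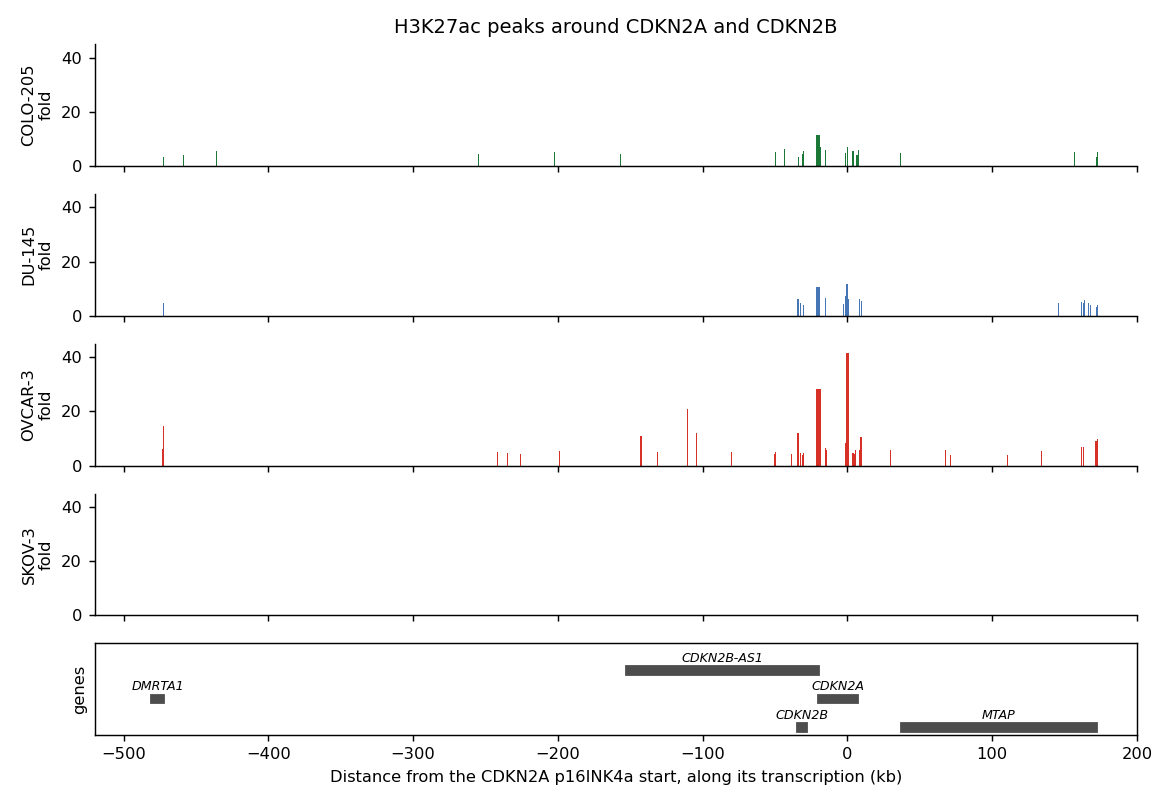
H3K27ac peaks around CDKN2A and CDKN2B, drawn to scale by distance from the p16INK4a start (kb, positive along its transcription), with the fold of each peak as height and genes in the lowest panel. COLO-205, DU-145 and OVCAR-3 have peaks at the p16INK4a, p14ARF, CDKN2B, MTAP and DMRTA1 starts, the highest being 41.7 in OVCAR-3 at position 0, and the SKOV-3 panel is empty.

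CDKN1B lies at chr12:12838432-12875303 on the plus strand. Its strongest promoter peak had a fold of 5.59 in COLO-205, 5.12 in DU-145 and 13.5 in OVCAR-3, all at the canonical start. The OVCAR-3 peak was 1870 bp wide, had a pileup of 199 tags and stood at percentile 93.0 of its list. SKOV-3 had no promoter peak, but it had a pair of peaks with folds of 5.93 and 4.98 between CDKN1B and APOLD1, about where the other lines had their strongest peak of the neighbourhood. There the fold was 9.14 in COLO-205, 6.51 in DU-145 and 24.5 in OVCAR-3, higher than at the CDKN1B start in each of these lines.

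Overlap between lines was counted separately for promoter peaks and for distal peaks, which lie over 1 kb from every start. Each peak was counted once where the windows of neighbouring genes share it, and the share over the whole list of each line is given beside that of the 10 genes. Of the promoter peaks, 78.6% of 28 overlapped a peak of another line in COLO-205, against 63.5% of its whole list. The share was 88.5% of 26 against 68.0% in DU-145, 67.7% of 31 against 72.9% in OVCAR-3, and 5 of 5 against 96.5% in SKOV-3. Of the distal peaks near the 10 genes, 13.0% of 161 were shared in COLO-205, against 15.1% of all its distal peaks, and 132 of the 161 were at CCND3. In OVCAR-3 it was 20.5% of 78, of which 60 were at CCNE1, against 27.4%. In DU-145 the distal share was 78.4% of 37 against 24.6%, and 19 of the 29 shared peaks were at CCND3 or CCNE1, where the COLO-205 or OVCAR-3 peaks cover much of the window. In SKOV-3 it was 3 of 4 against 64.0%. Without CCND3 and CCNE1, which were left out after the values were seen, 10 of 16 distal peaks were shared in OVCAR-3, 10 of 17 in DU-145, 7 of 28 in COLO-205 and 1 of 2 in SKOV-3. Promoter peaks were shared more often than distal ones in each of the whole lists too. None of the distal peaks near the 10 genes overlapped a peak in all the other lists, where 0.804% of all distal peaks in OVCAR-3, 8.76% in SKOV-3, 0.831% in DU-145 and 0.758% in COLO-205 did so.

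Of 26 other genes of the G1/S pathway, among them the pocket proteins, the E2F factors and CDK2, a promoter peak was found for 24 in OVCAR-3, 16 in SKOV-3, 25 in DU-145 and 23 in COLO-205, where the shares of all protein-coding genes were 60.5%, 31.6%, 59.8% and 51.1%. The difference between these genes and the 10 G1 genes was not tested. RB1, the main substrate of CDK4 and CDK6, was marked in all 4 lines, with a fold of 6.07 in OVCAR-3, 6.38 in SKOV-3, 4.59 in DU-145 and 7.15 in COLO-205. By the strongest promoter peak of each gene, E2F3 had the highest fold of these 26 genes in each line, with 19.5 in OVCAR-3, 10.7 in SKOV-3, 8.75 in COLO-205 and 8.60 in DU-145. CDKN1A, which encodes the inhibitor p21, had a promoter peak in DU-145 alone, with a fold of 4.47. CDK2, the partner of the E-type cyclins, was marked in COLO-205, DU-145 and OVCAR-3 with folds of 3.82, 5.41 and 5.81 and had no peak in SKOV-3. CDKN2C and CDKN2D, the INK4 genes outside 9p21, were marked in all 4 lines, with folds of 6.40 and 3.72 in SKOV-3.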

How the data were processed

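H3K27ac ChIP-seq was done on 2 ovarian lines (OVCAR-3, SKOV-3), 1 prostate line (DU-145) and 1 colon line (COLO-205), each with 1 library. Per the submitters' processing notes, reads were mapped with Bowtie2 2.1.0 and peaks called with MACS2 2.1.0.20150603 on hg19. Each peak deposited by the authors has a whole-number score, its −log10 q and −log10 p, and a fold enrichment, which is a ratio of summit pileup plus 1 to local background plus 1, beside its start, end and summit. The q-value limit was 0.001. The lists were used as deposited, with neighbours under 350 bp apart still separate although the methods merge them. Use of an input in the peak calls is not given in the sources used here.

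Pileup and background at each summit were recovered from the fold and −log10 p (tolerance 0.001), with exact Poisson 95% intervals that cover counting error only. The number of ChIP tags follows from 2700000000 genome positions, the narrowest peak and the lowest background. A promoter peak overlapped by at least 1 bp the 1 kb either side of any transcript start in GENCODE, lifted to GRCh37, and a distal peak lay over 1 kb from every start. Percentiles rank a gene's strongest promoter peak by −log10 q among protein-coding genes. Motifs were searched on both strands (E2F as printed, SP1 GGGCGG, CRE TGACGTCA, AP-1 TGANTCA), and CRE and AP-1 letters, in 2.40% and 4.70% of promoters, were in none of the windows shown. Recovery of pileups was tested on simulated data.

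Named are the 10 genes, neighbours with a start in their windows and the nearest marked protein-coding genes beside the 9p21 gap. Also named are the 3 genes most like CCNE1 in coverage, the strongest distal peak per gene and line, and fixed pathway and marker lists. Some marker genes are not reported here. Members, lists and the attention to CDKN2A and CCNE1 were chosen with earlier results of these data known. The alternatives were −log10 q of at least 5 or 10, merging within 350 bp, equal peak numbers, other window sizes, overlap of 50% of the peak, coding transcripts, canonical starts and the nearest start. Tools were pandas 2.3.3, numpy 2.4.6, scipy 1.17.1 and matplotlib 3.10.9 under Python 3.11.15.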

Additional observations from a re-analysis of the deposited data

How the results depend on the processing

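No paired analysis was possible because each line has 1 library and no test was run. The number of G1 genes with a promoter peak moved by over 1.5 times in 1 case, to 4 in COLO-205 with equal numbers of peaks. With canonical starts alone, or with summits nearest to a start of the gene, it stayed between 8 and 9 in COLO-205, DU-145 and OVCAR-3. It was 2 in SKOV-3 under both settings, which were chosen after seeing the data. The shares of all protein-coding genes under either of these settings were not computed. The number of peaks within 50 kb of the 10 genes, 125 in OVCAR-3, 16 in SKOV-3, 87 in DU-145 and 214 in COLO-205, became 142 in COLO-205, 21 in DU-145 and 62 in OVCAR-3 with equal numbers of peaks, 41 in DU-145 at a −log10 q of at least 10, 70 in OVCAR-3 after merging and 233 in OVCAR-3 with 100 kb either side. The longest stretch without a peak around the CDKN2A starts became 172330 bp in COLO-205 and 7942 bp in OVCAR-3 at a −log10 q of at least 10, and 434279 bp, 296983 bp and 7942 bp in COLO-205, DU-145 and OVCAR-3 with equal numbers of peaks, still below the 4117488 bp of SKOV-3. Stricter thresholds leave fewer peaks by construction. The ratio of OVCAR-3 to the next line at CCNE1 was 8.63 and moved by over 1.5 times to 4.33 with merging, 17.3 at a −log10 q of at least 10, 15 with 100 kb either side and 20.6 by coverage, each time with OVCAR-3 higher. For single genes, 207 of 280 neighbourhood counts stayed within 1.5 times their value and 73 moved by more. Peak lists give no signal below their threshold, so weak marks, above all in SKOV-3, were not detectable.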
